A study of Mus musculus with 258 samples.

Results

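Chromatin loops are pairs of genomic positions, the anchors, that touch more often than their surroundings do. The loops described here are the mid-length loops of resting mouse B cells that were also called after activation: autosomal loops with anchors more than 50 kb and at most 500 kb apart, with a loop in activated cells whose left and right ends both lay within 20 kb of theirs. Of 1866 loops called in resting cells, 1814 were autosomal and 1219 of these were mid-length, and 914 of the mid-length loops had such a partner. They are called kept loops below. The members were chosen by their presence in both loop lists, so that presence, and every value a loop needs to enter a list, is given as a description and without a test.

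The cells were B cells of wild-type C57BL6/J mice aged 6 to 8 weeks, taken from the spleen by negative selection. Resting cells were used at 0 h. Activated cells had been cultured for 72 h with lipopolysaccharide (LPS, 50 µg/mL), which signals through a Toll-like receptor, interleukin 4 (IL-4, 2.5 ng/mL), a cytokine of helper T cells, and an antibody to CD180 (RP105, 0.5 µg/mL), a surface protein of B cells. The labels give 8 in situ Hi-C libraries for the resting state and 26 for the activated state. In situ Hi-C ligates crosslinked DNA ends inside the nucleus and counts the joined pairs by sequencing. The authors' loop lists hold 1 pooled value per loop and state. There are thus no replicates behind any value, and the sources used here do not say whether all libraries entered the pooled maps. The activated list carries no time in its name. It was read as 72 h, since the description deposited with the maps names no other activated state free of a deletion or an inhibitor.

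In mammalian cells many loops of this length join a pair of sites bound by the protein CTCF. The ring-shaped cohesin complex is thought to draw DNA through itself until bound CTCF on either side stops it, which leaves those sites in contact as a loop. Other loops join promoters to enhancers. Resting B cells are small quiescent cells with compact chromatin, and activation makes them grow, divide and begin to differentiate towards antibody secretion or class switching. No gene annotation or sequence of the mouse build used in the lists (mm9) was used here, so loops are named by position, and whether an anchor lies in a gene, a promoter or a CTCF site was not analysed here.

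Each loop was recorded as a pixel, a square of the contact map 5 kb on a side. Its values are the observed contacts in that pixel and the contacts expected from 4 local backgrounds: a ring around the pixel (the donut), the block to its lower left, which holds the contacts between positions inside the loop, and the horizontal and vertical strips through it. Strength is the observed count divided by the donut-expected count, and a log2 ratio of strengths is activated over resting. The kept loops rested on 20 to 159 observed contacts in resting cells (median 57) and 23 to 285 in activated cells (median 93). Counts were higher in the activated map at most of these loops. The donut-expected count was higher in activated cells at 852 of the 914 loops, with a median ratio of 1.52. This ratio was 1.58 from 50 to 100 kb and 1.47 from 200 to 500 kb. No library totals were used, so the part of sequencing depth in it was not tested. Observed contacts were higher at 866, lower at 41 and equal at 7, with a median ratio of 1.62. Over all 1170 autosomal loops with a partner, the donut-expected count was higher at 1096 and observed contacts at 1111. Raw counts are therefore not compared between states except beside their expected counts or strength.

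Most mid-length resting loops were called again in activated cells, and the share was highest for loops that were long, strong and broad in resting cells. It was 74.98% (914 of 1219, Wilson 95% interval 72.5 to 77.3), beside a background of 64.5% over all autosomal resting loops. Up to 50 kb 226 of 547 resting loops were kept (41.3%), and above 500 kb 30 of 48 (62.5%, interval 48.4 to 74.8). Within the mid-length loops the share was 66.0% from 50 to 100 kb (303 of 459, interval 61.6 to 70.2), 78.6% from 100 to 200 kb (378 of 481, 74.7 to 82.0) and 83.5% from 200 to 500 kb (233 of 279, 78.7 to 87.4). These intervals cover counting error over loops only.

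Kept loops had a higher median resting strength than loops that were called in resting cells alone, with a wide overlap. The kept loops had a median resting strength of 2.91 (quartiles 2.53 to 3.43) and the 305 resting-only loops one of 2.56 (2.23 to 2.92). By quartile class of resting strength the share kept went from 58.7% to 72.5%, 79.9% and 88.9%. Over all lengths together the median observed count was 57 in both groups, but the resting-only loops were shorter (median 100 kb against 130 kb), and shorter loops have more contacts. Within each length class kept loops had the higher median count, at 69 against 62 contacts from 50 to 100 kb, 55.5 against 52 from 100 to 200 kb and 47 against 42 from 200 to 500 kb. The median donut-expected count differed less, at 26.4 for kept and 28.1 for resting-only loops, 18.7 and 19.3, and 13.9 and 13.2 in these classes.

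Inside each length class the weakest resting loops were kept least often, most widely so in the shortest class. From 50 to 100 kb, where a loop stands on the densest background, 42.6% of resting loops in the weakest quartile class (49 of 115) and 82.6% in the strongest (95 of 115) were kept. From 100 to 200 kb the shares were 70.2%, 78.3%, 76.7% and 89.2% from the weakest to the strongest class. From 200 to 500 kb the weakest class stood at 74.3% and the others had no order, at 87.1%, 87.0% and 85.7%, and the intervals of all 4 overlap.

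**Figure D1:**
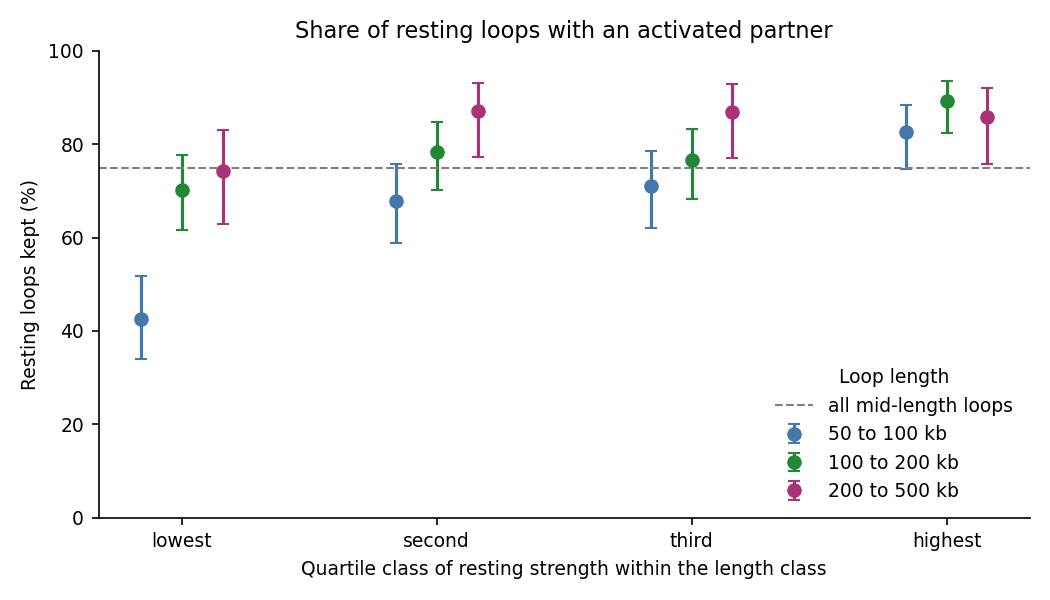
Share of mid-length resting loops with an activated partner (vertical axis, percent) by quartile class of resting strength within each length class (horizontal axis), with Wilson 95% intervals as bars. The dashed line is the share over all mid-length loops, 74.98%, and the lowest point is the weakest class from 50 to 100 kb at 42.6%.

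Breadth in resting cells went with being kept as well. The caller merges neighbouring enriched pixels into 1 loop, and the number merged is a measure of how broad the enriched spot is. Of loops with 1 pixel 57.9% were kept (88 of 152), of loops with 2 pixels 63.5%, of loops with 3 to 5 pixels 80.4%, and of loops with 6 or more 90.5% (258 of 285, interval 86.6 to 93.4). The authors' q-values, the false discovery rates against each background, were at most 0.01 for all 4 backgrounds at 67.2% of kept loops (614) and at 51.1% of resting-only loops in resting cells. Merged pixels and strength were nearly unrelated over the kept loops in resting cells (Spearman rho 0.04, n = 914 loops of 1 map), while merged pixels were higher at loops with more observed contacts (rho 0.55).

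The share kept varied between chromosomes within wide intervals. It was lowest on chromosome 3 (43 of 65, 66.2%, interval 54.0 to 76.5) and highest on chromosome 14 (36 of 42, 85.7%, interval 72.2 to 93.3).

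By the rule, each anchor of a kept loop lies within 20 kb of that of its partner, and within this limit small shifts were the most common. Of the 914 loops, 908 had a single candidate partner and 6 had 2, and the 914 loops used 912 distinct activated loops. The called pixel was identical at 312 loops (34.1%). One anchor had moved and the other had not at 419 loops (45.8%), with the left anchor moved at 204 and the right one at 215. Both anchors had moved at 183 (20.0%). Summed over both anchors, the displacement was at most 5 kb at 562 loops (61.5%), at most 10 kb at 733 (80.2%) and at most 20 kb at 872 (95.4%), where the rule would have allowed 40 kb in all. Loops with a larger shift at an anchor are not members, such as 31 resting-only loops with an activated loop within 25 kb at both ends.

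The displacements had no common direction. The left anchor lay at a lower coordinate in activated cells at 188 loops and at a higher one at 199, and the right anchor at 201 and 197. Where both had moved, 62 loops had both anchors shifted in the same direction, 62 had their anchors farther apart and 59 closer together. Of those shifted in the same direction, 31 kept their length. Partners were longer at 278 loops, shorter at 293 and of equal length at 343. The median length was 130 kb in resting and 135 kb in activated cells. For 23 loops the partner was 50 kb or shorter, and for 1 it was longer than 500 kb.

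**Figure D2:**
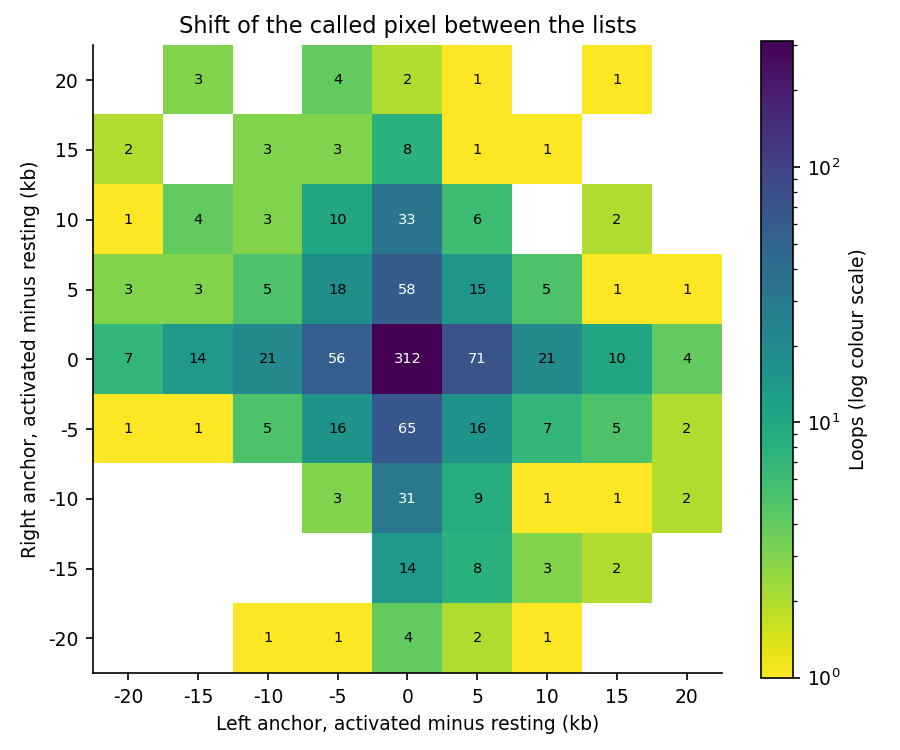
Number of kept loops by the shift of the left anchor (horizontal axis, kb) and of the right anchor (vertical axis, kb) from the resting to the activated list, with a logarithmic colour scale. The 312 loops at the centre kept their pixel, and most others lie on the cross where 1 anchor stayed in place.

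Shorter and broader loops kept their pixel more often. The share at the same pixel was 38.3% from 50 to 100 kb, 33.6% from 100 to 200 kb and 29.6% from 200 to 500 kb. It was 41.1% for loops with 6 or more merged pixels in resting cells, against 28.9% to 32.9% in the 3 narrower classes. By quartile class of resting strength it had no order, at 31.9%, 36.4%, 31.1% and 37.1%. Differences between these classes were not tested. The largest summed displacement was 35 kb, reached by 6 loops. At each of the 3 of them that the naming rule picks, the activated loop was the longer one. On chromosome 11 the loop from 82575001 to 82690000 went with an activated loop from 82555001 to 82705000, at strengths of 2.75 and 3.78. On chromosome 17 the loop from 24685001 to 24770000 had a partner from 24670001 to 24790000, at strengths of 1.93 and 2.16. On chromosome 18 the loop from 39120001 to 39255000 had a partner from 39100001 to 39270000, and its strength was 2.42 on 59 contacts in resting and 4.07 on 132 contacts in activated cells.

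Kept loops were broader spots in the activated map. The median number of merged pixels was 3 in resting cells (quartiles 2 to 6) and 9 in activated cells (5 to 15). Activated cells had more merged pixels at 765 loops (83.7%), fewer at 84 and as many at 65, with a median log2 ratio of 1.09. Over all 1170 autosomal loops with a partner, which are largely the same loops, 80.5% had more, with a median log2 ratio of 1.00. The share was 69.0% for kept loops up to 50 kb and 70.0% above 500 kb. There were 88 loops of a single pixel in the resting map and 31 in the activated map, and 82 of the 88 had more than 1 pixel in activated cells. Loops of 10 or more pixels numbered 88 in resting and 414 in activated cells. The radius of the merged spot had a median of 28.8 kb in resting and 33.7 kb in activated cells. All 4 q-values were at most 0.01 at 614 loops in the resting list and at 794 (86.9%) in the activated list.

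**Figure D3:**
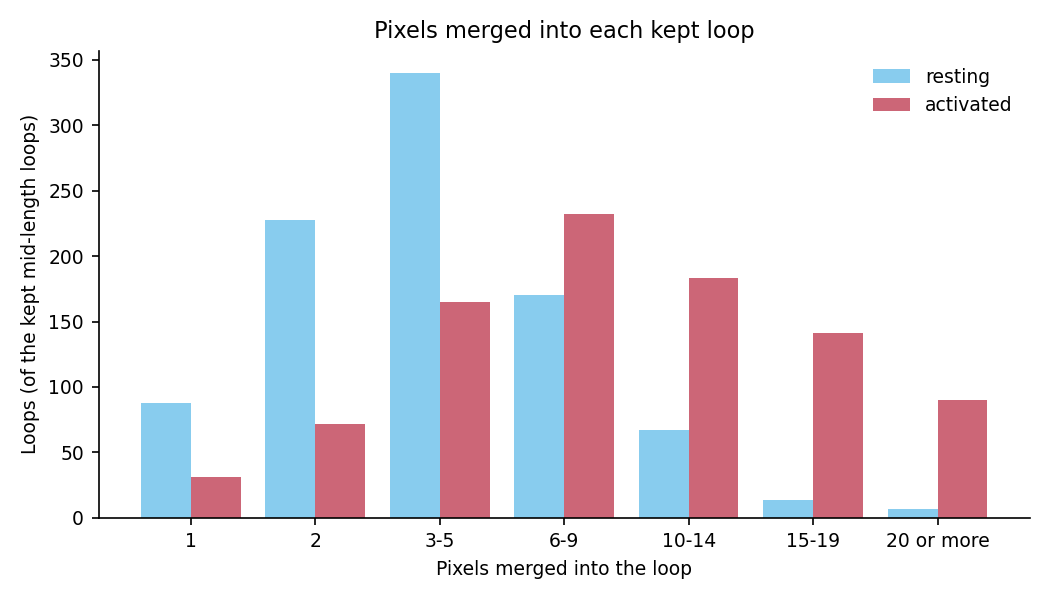
Number of kept loops (vertical axis) by the number of pixels merged into the loop (horizontal axis) in resting and in activated cells. Loops of 1 pixel went from 88 to 31, and loops of 10 or more from 88 to 414.

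The gain in merged pixels moved with the gain in observed contacts. In the lowest tercile of kept loops by gain in contacts (305 loops) the median observed ratio was 1.23 and the median expected-count ratio 1.26. The median was 3 pixels in resting and 5 in activated cells, and 66.6% of loops had more pixels. In the highest tercile (305 loops) these ratios were 2.06 and 1.84, the medians were 3 and 13 pixels, and 96.7% had more. The expected counts thus rose along with the contacts. The 48 loops whose contacts were equal or lower in activated cells had medians of 73.5 and 66 contacts, with a median expected-count ratio of 0.908. Their median was 3 pixels in both states, with 20 loops higher, 20 lower and 8 equal. The part of sequencing depth in the broader spots was not tested beyond these values. Mid-length loops called in activated cells alone (2461 loops) had medians of 3 pixels and 59 contacts, against 9 pixels and 93 contacts for the activated partners of kept loops. Kept loops also had to be called in resting cells. Merged pixels were higher at kept loops with more contacts in activated cells (rho 0.61). The difference in breadth was thus not separated from the choice of members.

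Relative to the local background, kept loops differed little between the states. Median strength was 2.91 before and 3.03 after activation, with a median log2 ratio of 0.07 (quartiles -0.14 to 0.28). Strength was higher in activated cells at 531 loops and lower at 383 (58.1% higher, against 57.6% of all 1170 autosomal loops with a partner). A loop too weak to be called in activated cells is not a member, so the rule limits the number of lower loops. It limits the number of higher loops too, since a loop too weak to be called in resting cells is not a member either. The SD of the log2 ratio over loops was 0.31 and the median counting error of a single loop was 0.24, so a large part of the spread between loops is of the size of counting error. Strength in one state ordered the loops in the other with a Spearman rho of 0.57 over the 914 loops and of 0.70 over the 312 at the same pixel. The loops of a state share 1 map, so these values describe the maps and carry no p-value. On the 19 autosomes the median log2 ratio was above 0 on 15, and ran from -0.03 on chromosome 5 (51 loops) to 0.17 on chromosome 18 (25 loops).

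Larger changes were few. Strength was over 25% higher in activated cells at 176 kept loops (19.3%), against 17.5% of all 1170 autosomal loops with a partner, and over 20% lower at 95 (10.4%), against 10.8%. The exact 95% counting interval of the strength ratio lay above 1 at 79 loops (8.64%, background 7.69%) and below 1 at 22 (2.41%, background 2.91%). These shares are near the background, which the kept loops themselves largely make up. A difference of over 2-fold was seen at 3 loops, all higher in activated cells. Membership limits both sides. The lowest strength in the activated list was 1.76. Only the 202 loops (22.1%) with a resting strength of at least 3.52 could thus have dropped by over 2-fold and still been called. The lowest strength in the resting list was 1.75, and loops that rose from below the resting limit are not members. How many rises this leaves out was not tested.

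**Figure D4:**
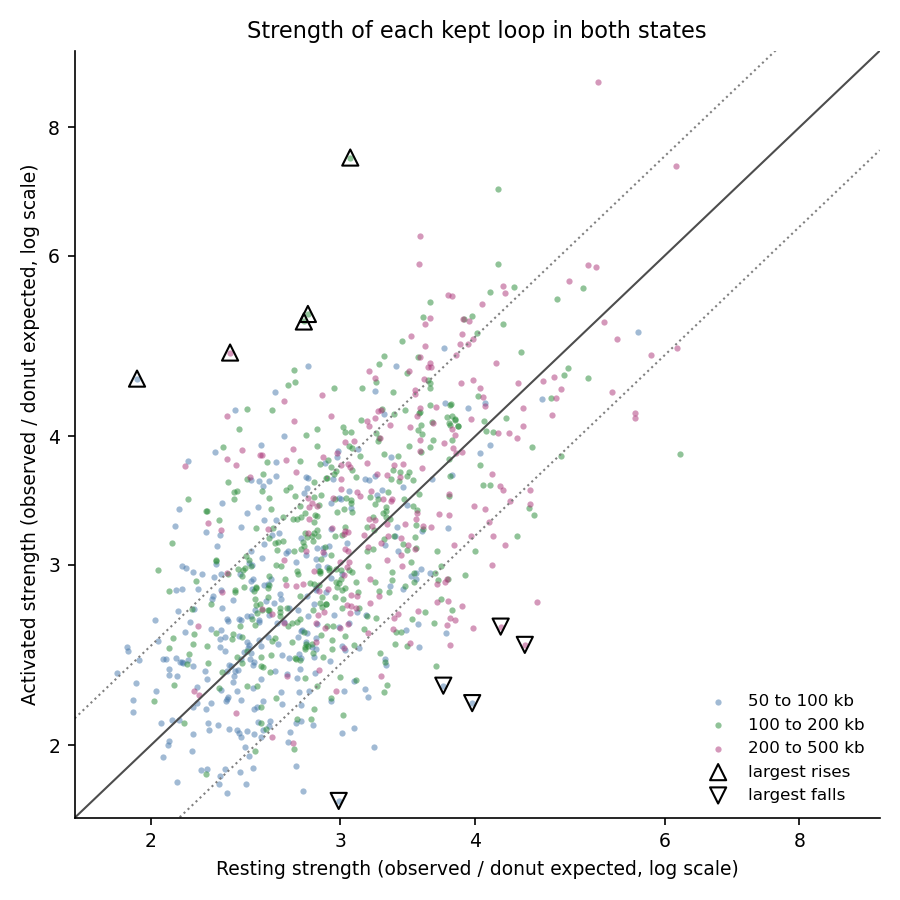
Strength of each of the 914 kept loops in resting cells (horizontal axis) and activated cells (vertical axis), both logarithmic, coloured by length. The solid line marks equal strength and the dotted lines a strength 25% higher or 20% lower, beyond which 176 loops lie above and 95 below. Triangles mark the 5 largest differences in each direction among loops with at least 30 contacts in both states.

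Loops with a higher mean strength over both states had a higher median log2 ratio. In the lowest tercile of kept loops by mean strength over both states the median log2 ratio was -0.01 and 49.2% were higher in activated cells. In the middle tercile it was 0.06 (56.9% higher), and in the highest 0.14 (68.2% higher), where median strength was 3.58 in resting and 4.01 in activated cells. The terciles also differed in median length, at 90, 137.5 and 185 kb. The mean and the ratio are made of the same 2 strengths and are not independent. Strength had wider quartiles in activated cells (2.58 to 3.68) than in resting cells (2.53 to 3.43). The lowest tercile began at a mean strength of 1.97, near the lowest strength in the activated list (1.76). The order of the terciles is therefore a description only.

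Part of the difference in strength went with where the partner pixel was placed. At loops with a longer partner (278) the median strength ratio was 1.11, with a donut-expected ratio of 1.42 and an observed ratio of 1.57. At loops with a shorter partner (293) these values were 0.971, 1.63 and 1.65. At loops of equal length (343) they were 1.05, 1.52 and 1.60. The observed counts thus differed less between these classes than the expected counts did, which are higher nearer the diagonal of the map. At the 312 loops compared at the identical pixel the median log2 ratio was 0.09 and 63.1% were higher in activated cells. Among them 57 were over 25% higher (18.3%) and 13 over 20% lower (4.17%).

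How large the median shift came out depended on the background used. It was 0.07 against the donut, 0.03 against the horizontal strip, and 0.02 against both the vertical strip and the lower left block, where 55.1%, 52.1% and 51.9% of loops were higher in activated cells. The 95% interval of the median, from order statistics over loops, was 0.04 to 0.09 against the donut and 0.014 to 0.058 against the horizontal strip, and it included 0 against the lower left block (-0.008 to 0.050) and the vertical strip (-0.006 to 0.052). It also included 0 when the highest of the 4 expected counts was used (median 0.010, interval -0.010 to 0.034). These intervals treat loops as independent, which loops of 1 map are not. The sign was the same against all 4 backgrounds at 587 loops, of which 327 were higher and 260 lower in activated cells, and it was mixed at the remaining 327. The strips held the highest expected count of the 4 at nearly every loop, the horizontal at 444 and the vertical at 450 in resting cells, and at 456 and 438 in activated cells. In 658 loops (72.0%) the same strip was the higher one in both states.

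The difference between backgrounds went with loop length. From 50 to 100 kb, the median log2 ratio was 0.02 against the donut and -0.07 against the lower left block, where 40.9% of the 303 loops were higher in activated cells. The expected count of the lower left block was 1.71 times higher in activated cells at these loops, and that of the donut 1.58 times. From 100 to 200 kb the ratios were 0.10 and 0.08, and from 200 to 500 kb 0.06 and 0.05. The kept loops of up to 50 kb lay farther in the same direction, with 0.02 against the donut and -0.21 against the lower left block (226 loops, 19.03% higher), and those above 500 kb had 0.18 against both (30 loops). The length classes were not tested against each other.

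**Figure D5:**
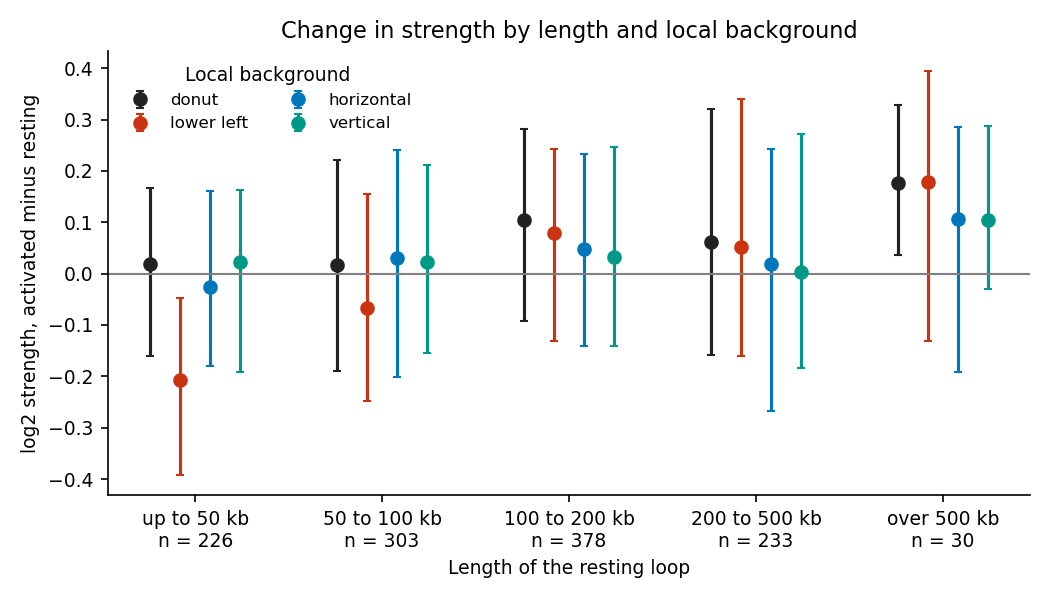
Log2 ratio of strength, activated over resting (vertical axis), by length of the resting loop (horizontal axis) and local background; points are medians over loops and bars run from the lower to the upper quartile. The lower left medians are below 0 up to 100 kb and above 0 from 100 kb, and the donut medians are above 0 in each class.

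The strongest kept loops were 200 to 250 kb long. The highest mean strength over both states was at the loop on chromosome 7 from 82280001 to 82515000, at the identical pixel in both states. It had 56 observed over 10.8 expected contacts in resting and 143 over 16.1 in activated cells, strengths of 5.20 and 8.87 (log2 ratio 0.77, counting SE 0.23). Its ratio was above 0 against all 4 backgrounds, from 0.49 to 0.77. On chromosome 1 the loop from 156630001 to 156860000, also at the identical pixel, had strengths of 5.10 on 97 contacts and 5.87 on 150, and on chromosome 7 the loop from 125910001 to 126140000 had 5.18 on 42 and 5.85 on 101. Their counting intervals, 0.886 to 1.50 and 0.781 to 1.66 as strength ratios, both included 1. On chromosome 17 the loop from 17530001 to 17785000 was the lower one in activated cells, at 6.16 on 40 contacts and 4.88 on 48, with an interval of 0.509 to 1.24.

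The other of the 5 strongest had fewer contacts in activated cells, unlike most kept loops. The loop on chromosome 12 from 114460001 to 114665000 had 89 observed contacts in resting and 85 in activated cells, while its donut-expected count was 21.2 and 12.2. Its strength was thus 4.20 and 6.97, with a log2 ratio of 0.73 against the donut, 1.28 against the lower left block, 0.43 against the horizontal and 1.10 against the vertical strip. A lower donut-expected count in activated cells was found at 62 of the 914 kept loops, and at 74 of all 1170 autosomal loops with a partner. Of the 62, 47 were stronger in activated cells. A lower expected count raises strength by definition, so that number is a description only.

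The largest difference of all had the same form. At the loop on chromosome 3 from 105925001 to 106115000, at the identical pixel, contacts were level and the strength ratio, from 3.06 to 7.48, came from expected counts of 36.9 and 14.8. The log2 ratio was smaller against the other backgrounds, at 0.94, 0.77 and 0.42 on the log2 scale for the lower left block, horizontal strip and vertical strip, against 1.29 for the donut. It had only 2 merged pixels in resting and 5 in activated cells.

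At the next 4 largest increases the observed counts did differ. On chromosome 13 from 41380001 to 41670000 contacts went from 60 to 139 while the donut-expected count was 25.3 and 28.8, and the log2 ratios against the 4 backgrounds lay between 0.83 and 1.19. On chromosome 8 from 123220001 to 123315000 the contacts were 78 and 156 and the expected counts 40.2 and 34.3, at a partner 25 kb longer. On chromosome 1 from 51535001 to 51645000 the counts were 54 and 161 over expected 19.3 and 30.6, also at a partner 25 kb longer, and the log2 ratio was 0.91 against the donut and 0.43 to 0.57 against the other backgrounds. On chromosome 7 from 30165001 to 30300000 they were 44 and 121 over 15.9 and 23.4, with log2 ratios between 0.61 and 0.90. All 5 had counting intervals above 1, and all 5 were higher against each of the 4 backgrounds. They were chosen by their donut ratio, and the 4 ratios of a loop share its observed counts. Both statements are therefore descriptions that follow largely from the choice.

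The 5 largest decreases were mostly at loops with a shorter partner. The loop on chromosome 13 from 23525001 to 23615000 had strengths of 3.98 and 2.20, on 112 and 182 contacts, and its partner was 30 kb shorter. The loop on chromosome 16 from 45195001 to 45415000 had 4.45 and 2.51, on 53 and 60 contacts, with a partner 25 kb shorter. The loops on chromosome 4 from 149025001 to 149085000 and on chromosome 11 from 49000001 to 49090000 each had a partner 10 kb shorter, with strengths of 2.99 and 1.77 and of 3.74 and 2.29. The loop on chromosome 2 from 35860001 to 36070000 was the only 1 of the 5 compared at the identical pixel. There 41 contacts stood over 9.70 expected in resting and 84 over 32.2 in activated cells, so contacts were higher but the donut was higher still, and strength was 4.23 and 2.61 (log2 ratio -0.69, counting SE 0.27, strength ratio interval 0.420 to 0.921). The 5 loops were lower against all 4 backgrounds, which also follows largely from their choice by the donut ratio.

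The longest kept loops with at least 30 contacts in both states had strength ratios whose counting intervals included 1. The loop on chromosome 10 from 94450001 to 94940000, 485 kb long and at the identical pixel, had strengths of 4.30 on 49 contacts and 4.03 on 59. The loop on chromosome 15 from 55390001 to 55875000 (480 kb) had 3.84 on 31 and 4.80 on 41, and the one on chromosome 13 from 51045001 to 51525000 (475 kb) had 4.05 on 50 and 4.46 on 62. The broadest loops were of short to middle length. On chromosome 17 the loop from 29530001 to 29650000 had 33 merged pixels in resting and 41 in activated cells, on chromosome 12 the one from 88130001 to 88250000 had 21 and 51, and on chromosome 11 the one from 102180001 to 102275000 had 16 and 39. The intervals of their strength ratios all included 1.

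Most kept loops stood alone among kept loops. Anchors within 10 kb were merged, which gave 1697 anchors, of which 1572 served 1 kept loop, 119 served 2 and 6 served 3. No anchor of another kept loop was shared by 699 loops, and 215 loops shared at least 1 and formed 94 linked groups. At 35 anchors, 1 kept loop ended where another began. Of the 6 anchors with 3 kept loops the naming rule picks 3. The anchor on chromosome 15 from 66500001 to 66510000 was the left end of loops of 190, 225 and 425 kb, which all kept their pixel. Their strengths were 2.84, 3.88 and 3.01 in resting and 3.30, 4.92 and 3.55 in activated cells, higher in activated cells at each. These 3 loops belong to the largest linked group, 5 loops between 66500001 and 66935000. In it the inner loop from 66625001 to 66695000 was the only 1 that was lower in activated cells, at 2.49 and 1.90, with a partner 25 kb shorter. The anchor on chromosome 15 from 55385001 to 55395000 joined loops on both of its sides, of 250, 450 and 480 kb, of which that of 250 kb had strengths of 3.56 and 6.27 on 35 and 70 contacts. The anchor on chromosome 17 from 31820001 to 31830000 was the left end of loops of 60, 155 and 340 kb, with strengths of 2.08, 2.44 and 4.15 in resting and 2.02, 2.97 and 3.68 in activated cells.

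More kept loops had another loop on an anchor in the activated list than in the resting list. With 20 kb allowed, 412 kept loops (45.1%) shared an anchor with another autosomal loop of the resting list and 620 (67.8%) with one of the activated list, which is the longer list (1814 and 4209 loops). A loop called in activated cells alone used an anchor of 503 kept loops (55.03%). At 267 (29.2%) that loop reached farther from the same anchor, at 191 (20.9%) it was shorter, and at 215 (23.5%) it ran outwards from the kept loop, beginning where the kept loop ended. The median log2 ratio of strength was 0.07 at the 267 loops with a longer activated-only loop on an anchor and 0.07 at the 647 without.

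Resting-only loops of the same lengths had activated-only loops on their anchors about as often, at 171 of 305 (56.1%), and a longer one at 92 (30.2%). They differed more in what enclosed them. An activated-only loop that spanned the loop without sharing an anchor was found around 54 kept loops (5.91%) and around 40 resting-only loops (13.1%). In the resting list itself, a longer loop from the same anchor was found at 142 kept (15.5%) and 81 resting-only loops (26.6%). From 50 to 100 kb, where the resting-only loops are concentrated, an activated-only loop lay around 26 of 303 kept (8.58%) and 27 of 156 resting-only loops (17.3%). Kept and resting-only loops are set apart by the choice of members, and these shares are given as a description. The rule also enters the count of enclosing loops. An activated loop that ends over 20 kb beyond a resting-only loop on both sides can count as enclosing it. The partner of a kept loop never can.

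The limits of the rule cut through a continuous range of lengths and shifts. There were 28 kept loops of 55 kb, the shortest that are members, and 34 kept loops of 50 kb, just below. The members on chromosome 10 from 79755001 to 79815000 and on chromosome 11 from 68875001 to 68935000 had resting strengths of 2.31 and 2.60, and the 50 kb loops on chromosome 1 from 88335001 to 88390000 and from 156895001 to 156950000 had 2.66 and 2.77. At the upper limit the members of 500 kb on chromosome 10, from 43290001 to 43795000, and of 490 kb on chromosome 13, from 81015001 to 81510000, had 4.24 and 3.81. The kept loops beyond it, of 505 kb on chromosome 9 from 32390001 to 32900000 and of 510 kb on chromosome 16 from 29725001 to 30240000, had 5.18 and 3.26. An anchor shift of exactly 20 kb was found at 43 members, with median strengths of 2.52 in resting and 2.66 in activated cells. A further 31 resting-only loops had an activated loop at 25 kb, with medians of 2.84 and 2.49, such as the loops on chromosome 1 from 130510001 to 130720000 (2.97 and 3.87) and on chromosome 12 from 80940001 to 81235000 (2.98 and 2.47).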

How the data were processed

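Reads were processed with BWA and Juicer on build mm9, per the submitters' processing notes. The loop caller was not given in the sources used here. In the authors' deposited lists, per the file headers, each loop has a whole-number observed contact count, expected counts from 4 local backgrounds, a q-value for each, the number of merged pixels and their centre and radius. The counts are not normalized for depth, and no library totals were used. On chromosome 1 the last activated loop ended at 196790000, past the last gene end of the GRCm38 gene table (195291439), so that table and its sequences were not used. Loops on chromosomes X and Y were left out.

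Length was the distance between pixel starts. A resting loop was kept when an activated loop lay within 20 kb at both ends, and the partner nearest by summed displacement was used. Ratios of strength have exact conditional binomial 95% intervals, with expected counts taken as fixed, and shares have Wilson intervals. Both cover counting error only. Medians of log2 ratios have order-statistic intervals over loops. No p-value was computed. Matching and intervals were run on simulated loops with shifts smaller than 20 kb, expected counts without error and no calling limit. That run does not show how often a false partner is found, or how well the intervals hold for called loops. The members and lists were chosen with earlier results of these data known. Named loops have at least 30 contacts in both states: the 5 with the highest geometric mean strength, the 5 largest rises and 5 largest falls of strength, the 3 longest, the 3 with most merged pixels, the 3 with the largest displacement, the 3 anchors with most members, and 2 loops on each side of each limit, which have no contact minimum. Ties were broken by position. Python 3.11.15, pandas 2.3.3, NumPy 2.4.6, SciPy 1.17.1 and matplotlib 3.10.9 were used.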

Additional observations from a re-analysis of the deposited data

How the results depend on the processing

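No paired analysis was possible because each state has 1 pooled list with no replicate numbers. The number of kept loops was 312 at the same pixel and 544 with all q-values at most 0.01 in both lists. The share kept was 25.6%, 51.4%, 64.6% and 77.5% with 0, 5, 10 and 25 kb allowed at each anchor, 70.6% with the q-value limit in both lists, 80.3% for loops of 100 kb or more, and 79.7% with the q-value limit in the resting list alone, a setting chosen after seeing the data. The median log2 ratio of strength was 0.021, 0.031, 0.023 and 0.010 with the lower left, horizontal, vertical and highest background, and the share of loops stronger in activated cells was 63.1% at the same pixel and 51.9%, 52.1% and 51.1% with the lower left, vertical and highest background. The expected-count ratio was 1.57, 1.56, 1.57 and 1.59 with the lower left, horizontal, vertical and highest background and 1.47 with at least 50 contacts in both lists. The share at the same pixel was 39.2% with the q-value limit in both lists. The cause of these shifts was not tested, beyond the fewer loops that narrower limits leave. The intervals of the median log2 ratio included 0, and those of the share included 50%, with the lower left, vertical and highest background, so no shift in either direction was resolved with these. The number of kept loops has no interval. It was 627, 787 and 945 with 5, 10 and 25 kb allowed, 912 in one-to-one pairs, 644 for loops of 100 kb or more, 614 with the q-value limit in the resting list alone, and 833 to 889 without 1 chromosome. Of 163 settings for the shares and medians, 142 stayed within the interval of the reported value. These include all 114 that leave out 1 chromosome, with a share kept from 74.6% to 75.6% and a median log2 ratio of strength from 0.07 to 0.08. Those 114 keep most of the same loops, so little change was possible in them. The shares and medians that fell outside the interval are all given above. A loop missing from a list was not called at that map's depth, which does not show that it was absent. The 95% counting interval of the strength ratio of a single loop reached a median of 0.50 to either side on the log2 scale, so smaller differences at a single loop mostly lie within it.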
